A study of Rattus norvegicus with 11 samples.

Results

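The transcripts described are 10 genes for AP-1 and EGR immediate early factors: Fos, Fosb, Fosl1, Fosl2, Jun, Junb, Jund, Egr1, Atf3 and Maff. They were taken by gene name from an expression table of 32883 rat genes, and each name matched 1 line. Messenger RNA had been sequenced at day 3 from rat bone marrow mesenchymal stem cells (BMSCs), the adherent stroma of marrow, from which osteoblasts, adipocytes and chondrocytes can be grown. Control and IRDC had 4 libraries each, and imDC had 3. The series text speaks of BMSCs induced with conditioned medium (CM) of dendritic cells (mDC), unirradiated at 0 Gy or irradiated at 8 Gy, beside a control. The titles carry no dose, so reading imDC as the 0 Gy medium and IRDC as the 8 Gy medium rests on the names alone. No strain, age, passage, medium of the control or sequencing batch is given, all groups share the cell type and the day, and no group differs in genotype by the labels. The titles speak of biological replicates, but no animal or culture is named, and the spread that the p-values rest on could therefore be technical.

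AP-1 is a pair of basic leucine zipper (bZIP) proteins, usually a FOS family protein with a JUN family protein, that binds a short DNA element in the control regions of many genes for proteases, cytokines and cell cycle proteins. JUN family proteins can also pair with each other or with ATF proteins, whereas FOS family proteins need a partner. EGR1 is a zinc finger protein that binds GC-rich elements. Many genes of this kind are immediate early genes: mitogens, cytokines or stress switch them on through MAP kinases within minutes and without new protein synthesis, and their short-lived transcripts usually fall again soon. In bone marrow stroma and osteoblasts, AP-1 proteins are known as regulators of bone formation; mice that overexpress FOSL1 or the short FOSB form gain bone.

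Levels are in FPKM, fragments counted per kilobase of a transcript and scaled by sequencing depth, so levels of different genes can be set side by side. Values are means ± SD over all libraries of a group (n = 4, or 3 for imDC). Changes are differences of log2(FPKM + 1) with their standard error (SE), a scale that understates the change of low genes. They come from a single limma fit over the 12521 genes that reached 1 FPKM in 3 or more libraries. A gene was called at an adjusted p (Benjamini-Hochberg over all genes tested) under 0.05. The fit took in 9 of the 10 genes, and Fosb stayed below the filter. Depth ran from 17.8 to 25.5 M reads per library.

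Upstream sequences of 7 of the 10 genes were found in RefSeq's promoter table (build GRCr8), covering 250 bases before to 50 bases after the start site. Those of Junb and Fosl1 are printed because these genes rose most, that of Maff because it separated IRDC from imDC, and that of Jund because its level moved least. The Junb promoter lies at chr19:40080876-40081175 (plus strand), that of Fosl1 at chr1:212183635-212183934 (plus strand), that of Maff at chr7:112792537-112792836 (plus strand) and that of Jund at chr16:18769722-18770021 (minus strand). Each is written 5′ to 3′ in the direction of the gene, and capitals mark the motifs found.
Junb: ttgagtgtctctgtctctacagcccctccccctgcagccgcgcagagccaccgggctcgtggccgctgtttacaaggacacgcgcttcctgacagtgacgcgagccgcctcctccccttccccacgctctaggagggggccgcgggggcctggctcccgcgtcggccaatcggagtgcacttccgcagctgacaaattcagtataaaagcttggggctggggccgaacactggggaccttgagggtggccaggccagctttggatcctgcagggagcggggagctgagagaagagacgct
Fosl1: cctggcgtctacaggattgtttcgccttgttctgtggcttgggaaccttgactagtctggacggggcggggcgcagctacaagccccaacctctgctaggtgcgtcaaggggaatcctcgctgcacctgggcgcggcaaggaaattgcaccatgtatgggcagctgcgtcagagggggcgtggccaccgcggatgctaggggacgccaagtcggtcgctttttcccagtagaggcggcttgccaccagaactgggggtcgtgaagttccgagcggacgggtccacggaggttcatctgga
Maff: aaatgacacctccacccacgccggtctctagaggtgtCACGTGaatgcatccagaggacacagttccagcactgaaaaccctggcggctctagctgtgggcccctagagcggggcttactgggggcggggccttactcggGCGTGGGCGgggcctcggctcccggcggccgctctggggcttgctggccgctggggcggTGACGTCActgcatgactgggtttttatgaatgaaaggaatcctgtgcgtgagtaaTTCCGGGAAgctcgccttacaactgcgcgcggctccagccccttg
Jund: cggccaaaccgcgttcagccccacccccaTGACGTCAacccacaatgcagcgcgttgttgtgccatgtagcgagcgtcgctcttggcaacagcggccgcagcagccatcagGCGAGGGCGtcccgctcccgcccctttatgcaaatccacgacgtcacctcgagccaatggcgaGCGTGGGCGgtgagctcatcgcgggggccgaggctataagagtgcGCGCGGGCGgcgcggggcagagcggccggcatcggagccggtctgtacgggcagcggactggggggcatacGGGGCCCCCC

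Both strands were searched for 7 motifs: the AP-1 site TGANTCA, the cAMP response element TGACGTCA, the EGR site GCGNGGGCG, the STAT site TTCCNGGAA, the hypoxia response core ACGTG, and, by name, the CArG box bound by serum response factor and the NF-kB site. Of 33469 rat promoters of this length, 7.33% held the AP-1 site, 1.83% the cAMP response element, 4.98% the EGR site, 1.27% the STAT site, 19.3% the hypoxia core, 1.64% the CArG box and 7.51% the NF-kB site. The Maff window held a cAMP response element starting at -51 from the start site, an EGR site at -110 and a STAT site at 6. The capitals CACGTG near its 5′ end hold the hypoxia core on both strands, at -213 and -212. The Jund window held a cAMP response element at -221, EGR sites at -139, -76 and -31, and an NF-kB site at 41. The Egr1 window held 2 CArG boxes, at -105 and -83, and a hypoxia core at -137, and the Fosl2 window held 2 EGR sites, at -249 and 9. No listed motif was found in the Junb, Fosl1 or Fosb windows. The AP-1 site was in none of the 7 windows. A match is a run of letters, not a measured binding site.

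The table was checked for its cell type first. Of 11 mesenchymal stromal markers in the table, 10 stood at 1 FPKM or more in every library, and their summed level was 6914 to 7304 FPKM over the 11 libraries. Macrophage and dendritic cell markers were present too. Their summed level was 1048 to 1075 FPKM in control, 1038 to 1056 in imDC and 682 to 687 in IRDC, and 14 of 18 in control and 16 of 18 in each other group were at 1 FPKM or more in every library. Ptprc, the pan-leukocyte CD45, was at 17.6 ± 0.723 FPKM in control, 8.48 ± 0.931 in imDC and 5.23 ± 0.142 in IRDC. Lyz2, a lysozyme of myeloid cells, was at 519 ± 5.87 FPKM, 496 ± 11.2 and 185 ± 3.25 in the same order. The markers did not move together: of 16 tested, 8 rose and 7 fell in imDC against control, 6 rose and 10 fell in IRDC against control, and 3 rose and 10 fell in IRDC against imDC. Of all tested genes, 23.1% rose and 40.1% fell, 24.5% and 51.5%, and 20.2% and 38.6%. Among the markers that rose against control was Cd163, a scavenger receptor of macrophages, at 0.956 ± 0.242, 20.3 ± 0.306 and 27.5 ± 0.879 FPKM in the 3 groups. Another was the complement gene C1qa, at 3.96 ± 0.531, 18.6 ± 0.689 and 18.3 ± 0.634. Flt3, the receptor that defines dendritic cell precursors, was at 0 in every imDC library and averaged 0.0297 FPKM in control, and was picked for its zeros. Neutrophil markers summed to at most 6.13 FPKM and endothelial markers to at most 0.894 FPKM in any library. The part of these cells in the levels below was not tested, and in bulk RNA fewer cells of a type and less RNA per cell cannot be told apart.

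The 10 transcripts did not move as a block. Junb, Fosl1, Fosl2 and Egr1 were higher in both conditioned groups than in control, Maff was high in IRDC, and Fos, Jun and Atf3 were lowest in IRDC. Against control, 6 of the 9 tested genes rose in imDC (Junb, Fosl1, Egr1, Fosl2, Maff and Jund) and 1 fell (Atf3), where 23.1% of all tested genes rose and 40.1% fell. In IRDC against control, 5 rose (Junb, Fosl1, Maff, Egr1 and Fosl2) and 3 fell (Atf3, Fos and Jun), against 24.5% and 51.5% of all tested genes. In IRDC against imDC, 4 rose (Maff, Fosl1, Junb and Fosl2) and 5 fell (Fos, Atf3, Jun, Jund and Egr1), against 20.2% and 38.6%. The libraries of the groups did not overlap for 7, 8 and 9 of the 9 genes in the 3 comparisons, where this held for 62.8%, 70.2% and 59.0% of all tested genes. Most genes thus differ between these groups, and a call alone does not set a gene of the set apart. The median change of the 9 genes was 0.14, 0.47 and -0.11, beside -0.09, -0.18 and -0.09 over all genes. The comparisons share libraries, so their results are given side by side and not as repeats of each other.

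**Figure D1:**
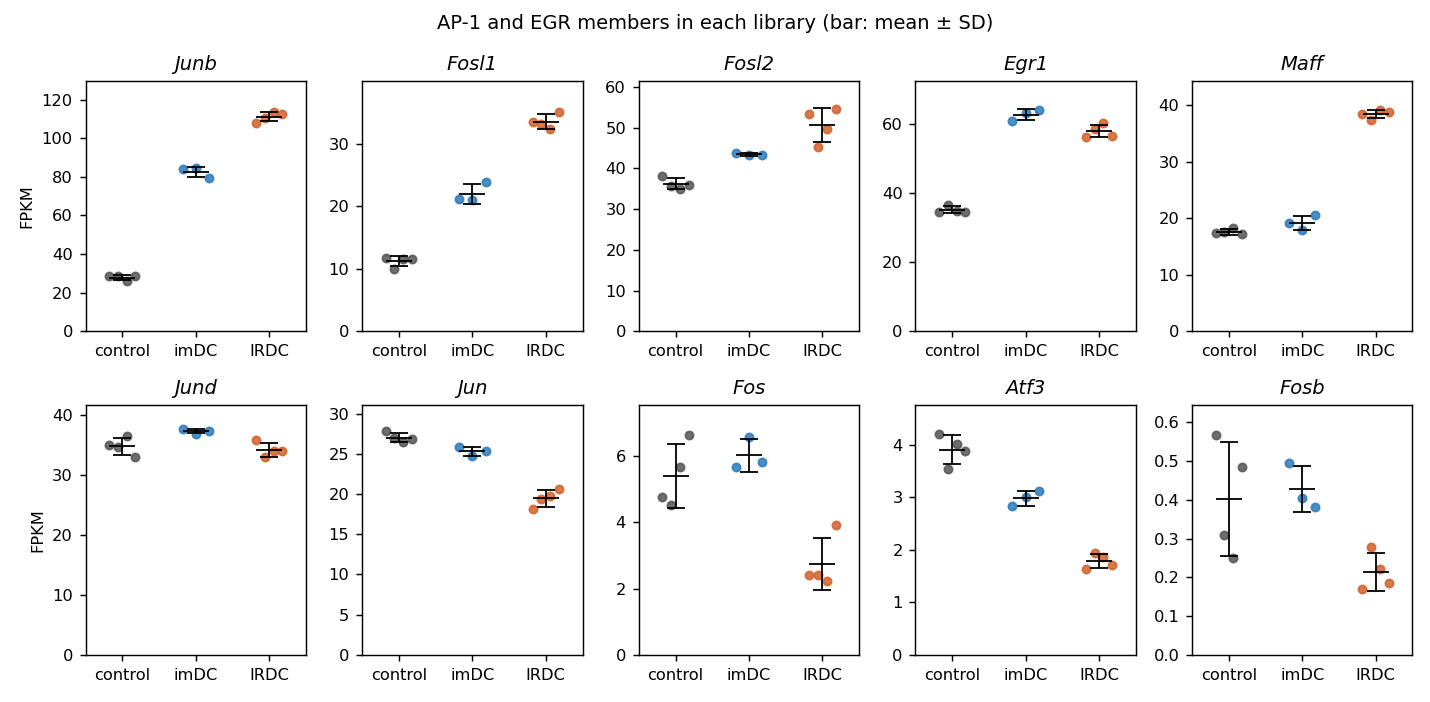
FPKM of the 10 genes in each library (points; y axis from 0, its scale differs between panels) in control, imDC and IRDC, with the mean and SD as bars. Junb and Fosl1 step up from control to imDC to IRDC without overlap, Egr1 is raised in both conditioned groups, Maff is near control in imDC and near 38.4 FPKM in IRDC, and Jun, Fos and Atf3 are lowest in IRDC.

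The JUN family is the partner side of AP-1. JUNB pairs with FOS family proteins and with BATF and is often described as a weaker activator than JUN at single sites. Junb stood at 28.7, 28.4, 25.9 and 28.3 FPKM in the 4 control libraries, at 84.0, 84.3 and 79.5 in the 3 imDC libraries and at 108.1, 110.4, 113.4 and 112.3 in the 4 IRDC libraries. The 3 ranges lay far apart. Replicate 3 was the lowest library of both control and imDC but the highest of IRDC. Junb rose 2.97-fold in imDC against control (log2 change 1.54, SE 0.036, adjusted p = 2.68e-12) and 3.99-fold in IRDC against control (1.96, SE 0.034, adjusted p = 3.68e-14). Only 1.59% of tested genes had a higher log2 change in imDC against control, and 2.24% in IRDC against control. In IRDC it was also above imDC, 1.34-fold (log2 change 0.42, SE 0.036, adjusted p = 7.96e-07).

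JUN, the classical activating partner, went the other way. Jun stood at 27.8, 27.0, 26.5 and 26.8 FPKM in control, at 25.8, 24.7 and 25.4 in imDC and at 18.1, 19.4, 19.7 and 20.7 in IRDC. Each IRDC library was below each library of the other groups. Jun fell by 0.45 on the log2 scale in IRDC against control (SE 0.037, adjusted p = 2.03e-07) and by 0.36 in IRDC against imDC (SE 0.040, adjusted p = 7.9e-06). The imDC libraries were all below the control libraries, but the change of -0.09 (SE 0.040) did not pass (adjusted p = 0.0681), passed in 4 of 21 alternative fits, and was 0.01 with a TMM-like scaling of the libraries.

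JUND is the family member most cells transcribe steadily, and its level moved least here. Jund stood at 34.9, 34.6, 36.5 and 32.9 FPKM in control, at 37.6, 36.9 and 37.3 in imDC and at 35.7, 32.9, 33.9 and 34.0 in IRDC. The imDC libraries were the highest, while control and IRDC overlapped. The change was 0.10 in imDC against control (SE 0.036, adjusted p = 0.0311), a call lost with any imDC library left out (adjusted p = 0.084 without replicate 1, 0.0517 without replicate 2 and 0.071 without replicate 3) and without control replicate 2 (0.0561) or 4 (0.0845). This rise was larger with TMM-like scaling (0.20, adjusted p = 0.000241) and quantile normalization (0.16, adjusted p = 0.00161). Against imDC, Jund fell by 0.12 in IRDC (SE 0.036, adjusted p = 0.011), a call lost with TMM-like scaling (-0.04, adjusted p = 0.318). In IRDC against control the change was -0.02 (SE 0.034, adjusted p = 0.517), which turned positive with TMM-like scaling (0.16, adjusted p = 0.000542) and with quantile normalization (0.06, adjusted p = 0.107).

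The make-up of JUN family transcripts shifted. Their summed level was 89.6 ± 1.44 FPKM in control, 145 ± 2.71 in imDC and 165 ± 2.73 in IRDC. Junb made up 31.1% ± 1.34 of this sum in control, 56.9% ± 0.929 in imDC and 67.4% ± 0.563 in IRDC. Jun held 30.2% ± 0.322, 17.4% ± 0.440 and 11.8% ± 0.487, and Jund 38.8% ± 1.60, 25.7% ± 0.515 and 20.7% ± 0.892. The ratio of Junb to Jun FPKM was 1.03 ± 0.037 in control, 3.26 ± 0.135 in imDC and 5.71 ± 0.217 in IRDC. In control the ranges of Junb and Jun overlapped, and in the conditioned groups every library had more Junb than Jun. These shares describe RNA, and no protein was measured.

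**Figure D2:**
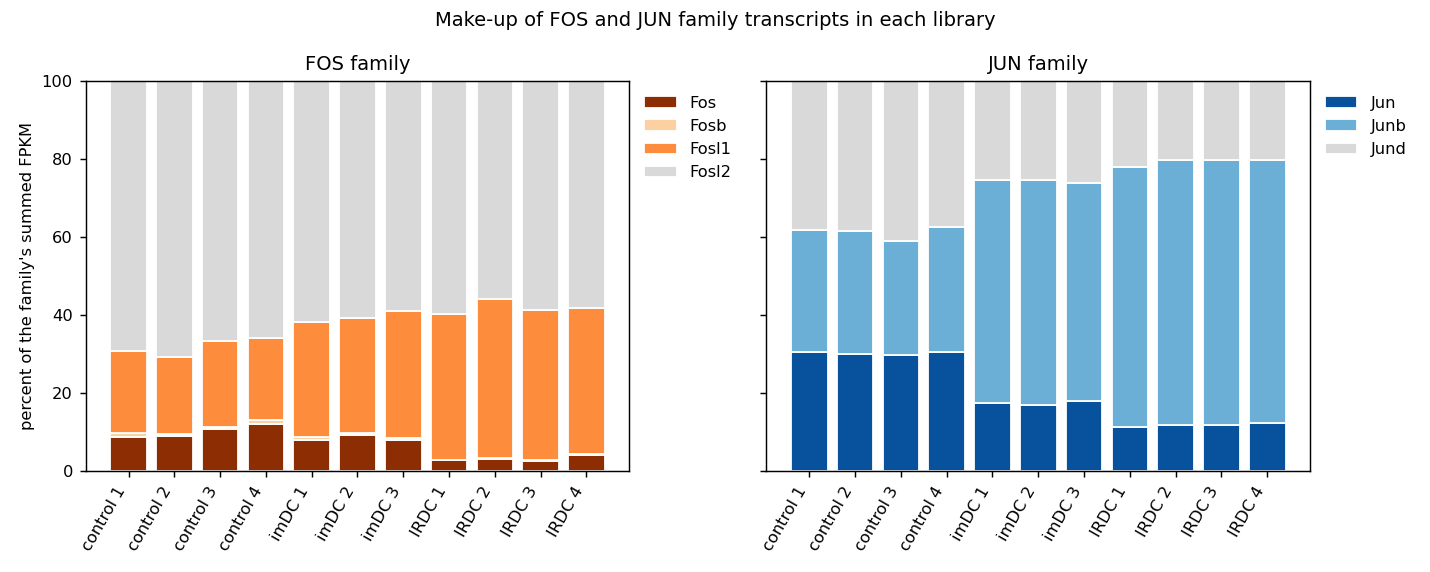
Percent of the summed FPKM of the FOS family (left) and the JUN family (right) held by each gene, with 1 bar per library. Junb grows from 29.1 to 32.2% of JUN family FPKM in the control libraries to 66.7 to 67.9% in the IRDC libraries, and Fosl1 from 19.8 to 22.0% of FOS family FPKM to 37.4 to 40.8%, while Jun and Fos shrink; FOS family shares rest on the short length behind Fosl2.

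In the FOS family, FOSL1 (FRA-1) and FOSL2 (FRA-2) lack the strong activation domain of FOS, and FOSL1 is a serum- and MAP kinase-induced gene that stays on longer than Fos. Fosl1 stood at 11.6, 9.96, 11.6 and 11.5 FPKM in control, at 21.1, 21.0 and 23.8 in imDC and at 33.5, 33.1, 32.3 and 35.1 in IRDC. The 3 groups formed separate steps. Fosl1 rose 1.97-fold in imDC against control (log2 change 0.92, SE 0.059, adjusted p = 3.74e-08), 3.00-fold in IRDC against control (1.50, SE 0.054, adjusted p = 5.48e-11) and 1.53-fold in IRDC against imDC (0.59, SE 0.059, adjusted p = 3e-06).

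Fosl2 made a smaller step of the same direction. It stood at 38.3, 35.6, 35.0 and 36.1 FPKM in control, at 43.9, 43.2 and 43.2 in imDC and at 53.4, 45.3, 49.6 and 54.5 in IRDC. IRDC was the most scattered group, yet its lowest library was above the highest of imDC. The log2 changes were 0.26 in imDC against control (SE 0.054, adjusted p = 0.00131), 0.47 in IRDC against control (SE 0.050, adjusted p = 2.58e-06) and 0.21 in IRDC against imDC (SE 0.054, adjusted p = 0.00474). The length behind its FPKM, worked out from the values, was only 744 bases, the shortest of the 10 genes, against 1589 for Fos and 1663 for Fosl1. This is shorter than the known Fosl2 transcript, so its FPKM may not be comparable with that of other genes, and its place among them, in shares and in order, rests on that length. By reads, Fosl2 exceeded Fosl1 in every control library (578 to 665 against 373 to 491), and Fosl1 exceeded Fosl2 in every imDC library (623 to 775 against 581 to 629) and every IRDC library (1143 to 1253 against 708 to 871). Reads are not scaled by length, so they do not rank the genes by level either.

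Fos itself was low. It stood at 4.78, 4.53, 5.67 and 6.63 FPKM in control, at 5.66, 6.59 and 5.82 in imDC and at 2.42, 2.42, 2.24 and 3.93 in IRDC. Control and imDC overlapped, and IRDC was below both, with replicate 4 well above its 3 fellows. These levels rested on 161 to 230 reads per library in control, 160 to 200 in imDC and 77 to 134 in IRDC. Fos fell by 0.78 on the log2 scale in IRDC against control (SE 0.136, adjusted p = 0.000199) and by 0.92 in IRDC against imDC (SE 0.147, adjusted p = 0.000167), where 4.10% of tested genes had a lower log2 change. The change in imDC against control was 0.14 (SE 0.147, adjusted p = 0.417), which passed only in the fit with a replicate block (0.26, adjusted p = 0.0377), 1 of 21 alternatives.

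Fosb, which encodes a strongly activating FOS protein and a shorter form, was near the limit of these libraries. It stood at 0.567, 0.309, 0.251 and 0.484 FPKM in control, at 0.496, 0.406 and 0.382 in imDC and at 0.169, 0.280, 0.222 and 0.187 in IRDC, on 24 to 45, 28 to 33 and 13 to 22 reads per library. IRDC was below imDC without overlap but overlapped control. In the fit without the filter its log2 change was -0.20 in IRDC against control (adjusted p = 0.0324) and -0.23 in IRDC against imDC (adjusted p = 0.0339), and 0.03 in imDC against control (adjusted p = 0.807).

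Summed over the 4 genes, FOS family FPKM was 53.2 ± 2.20 in control, 71.9 ± 1.16 in imDC and 87.2 ± 5.59 in IRDC. Fosl1 held 21.0% ± 0.937 of the sum in control, 30.5% ± 1.72 in imDC and 38.5% ± 1.60 in IRDC, and Fos 10.1% ± 1.63, 8.38% ± 0.743 and 3.13% ± 0.719. Fosl2, on its short length, had the highest FPKM in every library, with 68.1% ± 2.21, 60.5% ± 1.38 and 58.1% ± 1.64. Fosl1 exceeded Fos 2.10 ± 0.294 times in control, 3.67 ± 0.452 times in imDC and 12.7 ± 2.54 times in IRDC.

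EGR1, the zinc finger factor, is known as a serum response gene. Egr1 stood at 34.5, 36.6, 35.0 and 34.6 FPKM in control, at 60.9, 63.3 and 64.0 in imDC and at 56.4, 58.5, 60.2 and 56.7 in IRDC. Both conditioned groups were well above control, and imDC was the highest. Egr1 rose 1.78-fold in imDC against control (log2 change 0.82, SE 0.031, adjusted p = 2.76e-10) and 1.65-fold in IRDC against control (0.70, SE 0.029, adjusted p = 2.13e-10). In IRDC against imDC it fell by 0.11 (SE 0.031, adjusted p = 0.008), close to the all-gene median of -0.09, and the call was lost with TMM-like scaling (-0.03, adjusted p = 0.456). Egr1 thus had no further step up in IRDC.

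MAFF is a small MAF protein, which has no activation domain and pairs with itself or with CNC factors such as NRF2. Maff stood at 17.3, 17.5, 18.2 and 17.2 FPKM in control, at 19.1, 18.0 and 20.5 in imDC and at 38.4, 37.4, 39.1 and 38.7 in IRDC. Control and imDC overlapped, and every IRDC library was far above both, with little scatter. Maff rose 2.19-fold in IRDC against control (log2 change 1.09, SE 0.038, adjusted p = 3.73e-11) and 2.00-fold in IRDC against imDC (0.97, SE 0.041, adjusted p = 9.36e-10), where 1.85% of tested genes had a higher log2 change. The 1.09-fold rise in imDC against control (0.12, SE 0.041, adjusted p = 0.0228) was lost without control replicate 1 (adjusted p = 0.0501) or 4 (0.0527) and without imDC replicate 3 (0.119). The call was also lost with only the libraries compared (0.0551) and with voom on recovered reads (0.0674). It was larger with TMM-like scaling (0.22, adjusted p = 0.000353) and quantile normalization (0.19, adjusted p = 0.00126).

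ATF3 is a stress-induced bZIP protein, often a repressor, that pairs with JUN proteins. Atf3 stood at 4.20, 3.53, 4.01 and 3.88 FPKM in control, at 2.82, 3.00 and 3.11 in imDC and at 1.63, 1.93, 1.87 and 1.71 in IRDC. The groups stepped down without overlap. Atf3 fell by 0.30 on the log2 scale in imDC against control (SE 0.072, adjusted p = 0.00305), by 0.82 in IRDC against control (SE 0.067, adjusted p = 1.99e-07) and by 0.52 in IRDC against imDC (SE 0.072, adjusted p = 5.97e-05).

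**Figure D3:**
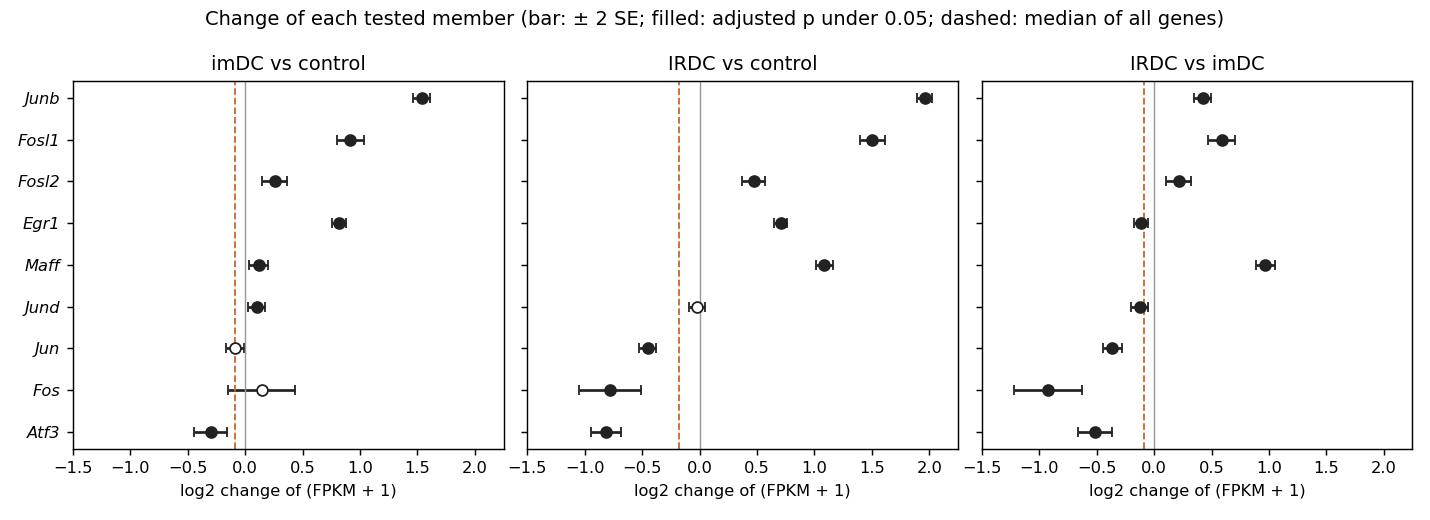
Difference of log2(FPKM + 1) for the 9 tested genes in each comparison (x axis), with bars of 2 SE on either side. Filled points passed the adjusted p of 0.05, open points did not, and the dashed line is the median of all 12521 tested genes. Junb has the largest rise against control in both conditioned groups, Maff the largest in IRDC against imDC, and Fos the largest fall there.

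The order of the genes by FPKM also changed. In control Fosl2, Egr1 and Jund stood highest, and neighbours among them overlapped in range. They were followed by Junb and Jun, which also overlapped, and then by Maff, Fosl1, Fos, Atf3 and Fosb, each apart from the next. In imDC the order was Junb, Egr1, Fosl2, Jund, Jun, Fosl1, Maff, Fos, Atf3 and Fosb, and all neighbours were apart. In IRDC it was Junb, Egr1, Fosl2, Maff, Jund, Fosl1, Jun, Fos, Atf3 and Fosb, and only Jund and Fosl1 overlapped. Junb thus stood in the middle of the order in control and led it in both conditioned groups, while Fos, Atf3 and Fosb were the lowest of the set in all 3.

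For the 4 genes whose group means spread most, the genes with the most similar profile were looked up by Pearson's r over the 11 libraries. The groups differ so widely that many genes share each profile, so r describes likeness only. Closest to Junb were Ccl20, a chemokine (r = 0.999), complement C3 and P4ha2, a collagen prolyl hydroxylase, and 1044 of 8677 genes had r over 0.9. Ccl20 was at 1.77 ± 0.439 FPKM in control, 228 ± 3.08 in imDC and 668 ± 1.38 in IRDC. Closest to Fosl1 were the RNA helicase gene Ddx41 (r = 0.998), the MHC class I gene RT1-A2, whose reads may be shared with similar copies, and Gpr153, with 1131 genes over 0.9. Ddx41 was at 22.0 ± 1.39 FPKM in control, 35.0 ± 0.843 in imDC and 45.5 ± 0.633 in IRDC. Closest to Maff were Snx18, a sorting nexin (r = 0.996), Matn4, a matrilin, and Crispld2, with 671 genes over 0.9. Crispld2 was at 9.54 ± 0.522 FPKM in control, 11.9 ± 0.027 in imDC and 39.8 ± 0.214 in IRDC. Fos had fewer genes of like profile, 105 of 8678, led by Tm9sf4 (r = 0.994), Nme2 and Coq2. It also rested on the fewest reads of the 4 genes, 77 to 230 per library, and scatter within groups limits r. Tm9sf4 was nearly flat, at 28.3 ± 0.426 FPKM in control, 28.7 ± 0.297 in imDC and 26.7 ± 0.595 in IRDC.

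Turning to genes around AP-1 and EGR1, the other bZIP partners had a share of falls in imDC near that of all genes. Of 11 tested, 5 fell in imDC against control, where 40.1% of all tested genes fell, and the list median was -0.18 beside -0.09 over all genes. The falls were led by Maf (log2 change -0.54, adjusted p = 2.46e-06) and Nfe2l1, a CNC factor (-0.34, adjusted p = 6.05e-07). The other 6 did not pass, and the count of rises was 0 in limma, at an unadjusted p under 0.05 and in voom on recovered reads. In IRDC against control 4 rose and 6 fell, and in IRDC against imDC 4 rose and 4 fell, a split that became 5 and 1 with either other scaling. Of all tested genes, 24.5% rose and 51.5% fell in the former, and 20.2% and 38.6% in the latter. The small MAF genes moved in IRDC beside Maff: Mafk went from 12.8 ± 0.692 FPKM in control to 10.0 ± 0.609 in imDC and 16.6 ± 0.691 in IRDC, and Mafg from 22.6 ± 1.04 to 22.9 ± 1.30 and 31.3 ± 2.10. In IRDC against imDC, Mafk rose by 0.68 (SE 0.053, adjusted p = 3.1e-07) and Mafg by 0.43 (SE 0.056, adjusted p = 2.96e-05). Batf, the JUNB partner of lymphocytes, was low, at 1.21 ± 0.445, 1.11 ± 0.152 and 0.568 ± 0.204 FPKM.

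The other EGR genes and the NAB corepressors, which EGR proteins recruit, gave calls that depended on the scaling in imDC and went both ways in IRDC. In imDC against control limma called none of the 4 tested, where 23.1% of all tested genes rose and 40.1% fell. At an unadjusted p under 0.05 there were 3, voom on recovered reads called 2, and 3 rose with either other scaling. In IRDC against control 2 rose and 2 fell, where 24.5% and 51.5% of all tested genes did. Egr3 fell by 0.86 (SE 0.079, adjusted p = 5.7e-07), from 1.19 ± 0.046 FPKM to 0.205 ± 0.047. Egr3 lay near the filter, at 0.926 ± 0.102 FPKM in imDC, and entered the fit through control, where it was highest. Nab2 fell by 0.43 (SE 0.043, adjusted p = 1.35e-06), from 22.6 ± 1.04 to 16.5 ± 0.753 FPKM. Egr2 rose by 0.47 (SE 0.098, adjusted p = 0.000811), from 4.61 ± 0.560 to 6.76 ± 0.706 FPKM, and Nab1 by 0.38 (SE 0.029, adjusted p = 7.66e-08). In IRDC against imDC 1 rose (Nab1) and 2 fell (Egr3 and Nab2), where 20.2% and 38.6% of all tested genes did.

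Other immediate early genes moved in both directions. Of 24 tested, 13 rose and 7 fell in imDC against control, 14 rose and 8 fell in IRDC against control, and 11 rose and 6 fell in IRDC against imDC. The list medians were 0.39, 0.52 and 0.07. Of all tested genes, 23.1% rose and 40.1% fell, 24.5% and 51.5%, and 20.2% and 38.6%. Ier3, an NF-kB- and serum-induced survival gene, was at 36.4 ± 1.95 FPKM in control, 114 ± 2.47 in imDC and 257 ± 5.22 in IRDC. Btg2, an antiproliferative p53 target, was at 8.92 ± 0.275, 31.2 ± 1.29 and 53.5 ± 1.78 FPKM, and Gadd45b, a stress gene of NF-kB and TGF-beta signalling, at 9.46 ± 1.27, 25.7 ± 0.909 and 36.3 ± 0.785. Klf4, a zinc finger factor of quiescent and stressed cells, fell by 0.92 in IRDC against imDC (SE 0.039, adjusted p = 1.07e-09), from 41.3 ± 1.67 to 21.4 ± 1.04 FPKM. Of the factors that act through CArG boxes, Srf and its ternary complex partners, 1 of 5 rose and 3 fell in imDC against control. In IRDC against control 2 rose and 3 fell. Elk3 was the largest rise there, from 28.4 ± 0.895 FPKM in control to 36.3 ± 0.128 in imDC and 52.7 ± 0.867 in IRDC, and Srf was at 12.8 ± 1.08, 13.4 ± 0.903 and 17.4 ± 0.614.

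Transcripts of the MAP kinases upstream of AP-1 were mixed. Of 14 tested, 3 rose and 7 fell in imDC against control, 4 rose and 6 fell in IRDC against control and 3 rose and 3 fell in IRDC against imDC. Of all tested genes, 23.1% rose and 40.1% fell, 24.5% and 51.5%, and 20.2% and 38.6%. The counts against control were near these shares. With TMM-like scaling the list split 3 and 4, 7 and 4, and 5 and 3. Map3k8 (TPL2), a kinase that links inflammatory receptors to ERK, rose most, from 1.51 ± 0.199 FPKM in control to 5.86 ± 0.773 in imDC and 14.2 ± 0.470 in IRDC. Map2k1, the ERK kinase MEK1, was at 61.5 ± 2.84, 104 ± 3.98 and 154 ± 3.31 FPKM. The ERK-activated kinase gene Rps6ka3 fell in each comparison, from 28.8 ± 1.02 FPKM in control to 19.8 ± 0.897 in imDC and 15.2 ± 0.501 in IRDC. Kinase activity lies in phosphorylation, which these data do not hold.

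Known AP-1 target genes had the highest median changes of the 10 pathway lists. Of 26 tested, 19 rose and 5 fell in imDC against control, 20 rose and 6 fell in IRDC against control, and 19 rose and 5 fell in IRDC against imDC. Their medians were 1.38, 2.73 and 0.88, beside -0.09, -0.18 and -0.09 over all genes. Of all tested genes, 23.1% rose and 40.1% fell, 24.5% and 51.5%, and 20.2% and 38.6%. The list was put together with earlier results of these data known, so its rank among the lists is a description only. Many of its genes are also targets of NF-kB and other factors, and no binding was measured. Mmp3 (stromelysin) was at 9.62 ± 0.252 FPKM in control, 146 ± 1.88 in imDC and 539 ± 6.86 in IRDC. Il6, an inflammatory cytokine gene, was at 13.1 ± 0.632, 236 ± 9.72 and 667 ± 17.5 FPKM, and Ptgs2, the cyclooxygenase COX-2, at 16.5 ± 0.929, 315 ± 8.11 and 833 ± 13.5. Il1a was at 0.135 ± 0.104 FPKM in control, 28.6 ± 2.42 in imDC and 146 ± 5.32 in IRDC, and passed the filter only through the conditioned groups. The collagenase gene Mmp13 rose by 1.83 in IRDC against imDC (SE 0.038, adjusted p = 1.31e-12), from 69.1 ± 3.73 to 248 ± 8.14 FPKM. Among genes that fell in IRDC against control were 6 of the list, named after their values were seen: Spp1 (osteopontin), Plau (urokinase), the cyclin gene Ccnd1, Lgals1, Hmga1 and Areg.

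Of 12 tested EGR1 target genes, 7 rose and 3 fell in imDC against control, 8 rose and 4 fell in IRDC against control, and 8 rose and 3 fell in IRDC against imDC. Their medians were 0.32, 0.71 and 0.45. Of all tested genes, 23.1% rose and 40.1% fell, 24.5% and 51.5%, and 20.2% and 38.6%. Ptges, the prostaglandin E synthase, was at 1.62 ± 0.232 FPKM in control, 56.2 ± 1.49 in imDC and 223 ± 1.45 in IRDC. F3, the clotting starter tissue factor, was at 22.3 ± 1.84, 259 ± 1.93 and 712 ± 13.1 FPKM. Both genes went on rising from imDC to IRDC, where Egr1 RNA did not, and the part of EGR1 in their levels was not tested. No EGR1 protein or binding was measured, and this list too was put together with earlier results of these data known. Ccnd2, a cyclin gene, fell by 1.08 in IRDC against imDC (SE 0.039, adjusted p = 2.02e-10), from 93.4 ± 1.69 to 43.6 ± 2.62 FPKM.

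**Figure D4:**
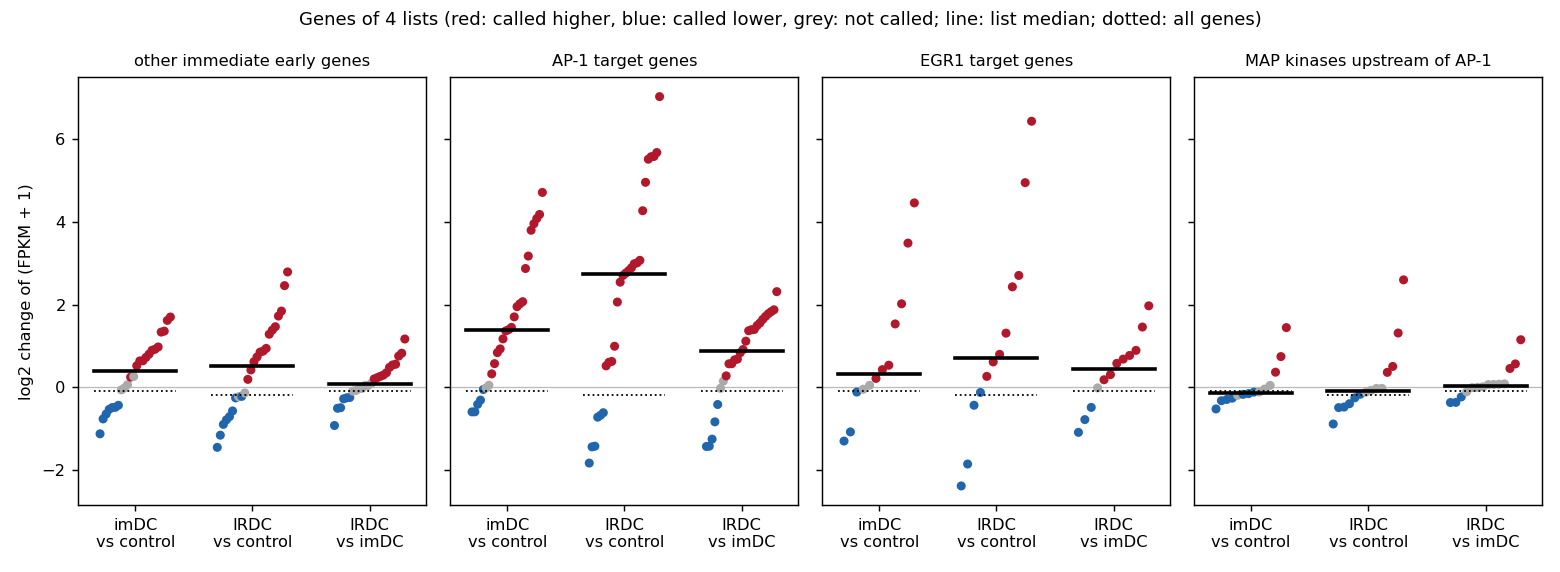
Difference of log2(FPKM + 1) for each tested gene of 4 lists in each comparison (red: called higher, blue: called lower, grey: not called), with the list median as a line and the median of all tested genes dotted. AP-1 target genes have the highest medians, 1.38, 2.73 and 0.88, whereas the upstream MAP kinases lie near the all-gene median with Map3k8 above. The lists were chosen with earlier results of these data known.

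The stress program that ATF3 usually accompanies was compared as well. Of 12 genes of the ATF4 and CHOP pathway, 9 rose and 2 fell in each conditioned group against control. Of all tested genes, 23.1% rose and 40.1% fell in imDC, and 24.5% and 51.5% in IRDC. The 2 pathway genes that fell, in the direction of Atf3, were Ddit3, which encodes CHOP itself, and Sesn2, a stress-induced sestrin. Both were named after their values were seen. Ddit3 was at 45.1 ± 2.94 FPKM in control, 35.9 ± 1.09 in imDC and 26.1 ± 1.40 in IRDC and fell in all 3 comparisons (adjusted p = 0.000161, 1.35e-08 and 1.17e-05). Ddit4 was at 24.2 ± 0.657 FPKM in control, 107 ± 1.44 in imDC and 171 ± 1.65 in IRDC, Vldlr at 23.7 ± 0.639, 76.7 ± 1.92 and 162 ± 3.20, and Cebpb, a bZIP gene of inflammation, at 20.2 ± 1.64, 45.8 ± 2.04 and 84.5 ± 6.45. In IRDC against imDC 8 rose and 2 fell, where 20.2% and 38.6% of all tested genes did. Among the 8 was Slc7a11, the cystine transporter, which rose by 1.05 (SE 0.075, adjusted p = 1.31e-07). Genes for RNA decay and RNA-binding proteins were listed as well. Not all of these proteins destabilise RNA or act on AU-rich transcripts, the class to which Fos RNA belongs. Of 6 such genes tested, 5 rose in each conditioned group against control, where 23.1% of all tested genes rose in imDC and 24.5% in IRDC. In IRDC against imDC, where Fos fell, 2 rose, 2 fell and 2 did not pass (median 0.03), beside 20.2% and 38.6% of all tested genes. Zc3h12a (Regnase-1) was at 5.53 ± 0.346 FPKM in control, 18.5 ± 1.09 in imDC and 42.7 ± 0.605 in IRDC, and Zfp36l1 at 73.7 ± 2.40, 116 ± 3.29 and 136 ± 1.04. Zfp36 (tristetraprolin) fell by 0.24 from imDC to IRDC (SE 0.065, adjusted p = 0.00702). RNA stability was not measured.

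Heat shock genes, which rise together with Fos and Atf3 when cells are handled or warmed, gave no common direction. Of 9 tested, 4 rose and 2 fell in imDC against control, 3 rose and 5 fell in IRDC against control and 3 rose and 4 fell in IRDC against imDC. Of all tested genes, 23.1% rose and 40.1% fell, 24.5% and 51.5%, and 20.2% and 38.6%. Hsph1 was at 42.0 ± 0.644 FPKM in control, 79.7 ± 1.46 in imDC and 96.4 ± 1.27 in IRDC, whereas Bag3 was at 32.0 ± 1.23, 21.0 ± 1.56 and 18.8 ± 1.47 and Hspe1 fell by 0.66 in IRDC against control (SE 0.042, adjusted p = 1.62e-08). Their part in the levels of Fos and Atf3 was not tested.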

How the data were processed

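The authors deposited FPKM values per gene. Per the submitters' processing notes the genome was rn6. Those notes name STAR 2.7.1a, HTSeq 0.13.5 and Cufflinks 0.17.3, and also cutadapt 1.18, FastQC 0.11.9 and SAMtools 1.3.1. The step that made FPKM and strandedness are not given in the sources used here, so reads of overlapping antisense genes cannot be told apart.

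Values were taken as log2(FPKM + 1), keeping genes that reached 1 FPKM in 3 or more libraries. All 11 libraries entered 1 fit in limma 3.58.1 (lmFit, then eBayes with a trend; R 4.3.3), with 3 contrasts, each adjusted by Benjamini-Hochberg. Because FPKM values fall on steps of a read, reads could be worked back for all 21487 genes above 0, as the lowest whole numbers that give the ratios (within 1e-08 relative and 0.1 read). These reads gave depth, gene length and the voom alternative. The fit was also run on simulated data in which a small part of the genes changed, in IRDC alone. Far more genes differ in the real groups, so that run cannot show how the calls depend on scaling.

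The members and the 14 gene lists were chosen with earlier results of these data known. Some genes stand in 2 lists. Named besides the 10 genes are, per list and comparison, up to 4 called genes with the largest changes, 3 most similar genes for each of 4 members (mean of at least 5 FPKM), and Ptprc and Lyz2; a few genes that this rule takes are not reported here. Alternatives were leaving out each library, a replicate block, no trend, a fit of each pair of groups alone, quantile normalization, TMM-like scaling, a 5 FPKM filter or none, and pseudocounts of 0.1 and 0.5. The voom fit was chosen after seeing the data.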

Additional observations from a re-analysis of the deposited data

Results flagged for a closer look

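In groups of 4 libraries, the highest or lowest library of a gene was set against the others by its gap to the nearest of them, divided by the range of the group. A gap above the 95% critical value of Dixon's test for 4 values was seen in 3 of the 20 groups examined, where chance gives about 1 in 20. Fos in IRDC replicate 4 was at 3.929 FPKM, while the other 3 libraries lay between 2.236 and 2.425 (gap over range 0.888). Fosl1 in control replicate 2 was at 9.964 FPKM, below the others at 11.53 to 11.65 (0.927). Junb in control replicate 3 was at 25.86 FPKM, below the others at 28.34 to 28.65 (0.889). The 3 values come from 3 different libraries. Without IRDC replicate 4 the log2 change of Fos was -0.92 in IRDC against control and -1.06 in IRDC against imDC, and both were still called (adjusted p = 9.54e-06 and 1.1e-05).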

How the results depend on the processing

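In 21 alternative fits, 20 of the 27 changes of a gene in a comparison kept their direction and their side of the threshold. The number of the 10 genes called stayed within 1.5 times the reported count in every alternative: 5 to 8 in imDC against control, 7 to 9 in IRDC against control and 7 to 10 in IRDC against imDC. Junb, Fosl1, Fosl2 and Atf3 kept every call, Atf3 in 20 fits only, since it is below the filter of 5 FPKM. With TMM-like scaling the change of Jun in imDC against control was 0.0087 (adjusted p = 0.874) and that of Jund in IRDC against control 0.16 (adjusted p = 0.000542), and with quantile normalization the latter was 0.062 (adjusted p = 0.107), all 3 positive where the reported values are negative. These scalings moved the all-gene median by 0.090, 0.165 and 0.073 (TMM-like) and 0.053, 0.151 and 0.101 (quantile) in the 3 comparisons. Of the called genes 36.6%, 32.3% and 34.4% were higher as reported, 50.6%, 48.5% and 47.2% with TMM-like scaling and 44.2%, 46.3% and 50.2% with quantile normalization. Jun in imDC against control passed without IRDC replicate 1 (adjusted p = 0.0337) or 4 (0.0436), with only the libraries compared (0.0336) and with voom (0.0494). With voom Jund (0.0644) and Maff (0.0674) no longer passed in that comparison. Replicate numbers are shared by the groups, and deviations of same-numbered libraries correlated weakly (-0.048 to 0.069). Set against the control libraries, the IRDC libraries correlated best with their own number in 4 of 4 cases, and no imDC library did. Against the imDC libraries, only IRDC replicate 3 correlated best with its own number, and replicates 1 and 2 did not. Weak correlations over all genes cannot decide whether the numbers mark a shared animal or batch, and no label says so. With the replicate block, Jund no longer passed in imDC against control (0.086, adjusted p = 0.0601) and Fos did (0.26, adjusted p = 0.0377). The cause of these changes was not tested. Fosb, on 13 to 45 reads per library, is limited by depth.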
